A study of Mus musculus with 45 samples.

Results

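The ubiquitin E2 enzymes, the Usp family and the F-box genes were followed through a study of RNA synthesis and decay in NIH-3T3 cells, an established line of mouse fibroblasts. Members were found by symbol (Ube2, Usp, Fbxo, Fbxw or Fbxl) among probe sets that the platform annotation gives to exactly 1 gene, and each gene was read from the probe set with the highest mean over all 45 arrays. The rule found 129 of 13232 genes: 29 E2 genes, 47 Usp genes and 53 F-box genes, the last made up of 27 Fbxo, 13 Fbxw and 13 Fbxl genes. The members had 278 probe sets, and 74 of them had more than 1. On the log2 scale, 102 members had a mean of 5 or more (an intensity of 32), and 27 lay below it: 2 E2, 8 Usp and 17 F-box genes.

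Ubiquitin is passed from an activating enzyme to an E2 conjugating enzyme, which hands it to a substrate with the help of a ligase. F-box proteins are the substrate receptors of the SCF ligases: Fbxw proteins bind through WD40 repeats, Fbxl proteins through leucine-rich repeats, and Fbxo proteins through other domains. The Usp enzymes remove ubiquitin again and form the largest family of deubiquitinases. A few members carry a family symbol without its usual activity: Ube2v1 and Ube2v2 are E2 variants without the catalytic cysteine, Usp39 is a splicing factor without protease activity, and Usp6nl is a GTPase-activating protein of Rab proteins.

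The study asked how fast transcripts are made and lost. Cells of passage 5 to 15 had been plated at 40% density 24 h earlier and were at about 80% when fresh medium brought either 4-thiouridine (4sU), a uridine analogue that is built into RNA as it is made, or actinomycin D, which blocks transcription. The first 3 groups were total RNA before, and 1 h and 2 h after, 5 µg/ml actinomycin D. Newly transcribed RNA was measured after 15 min or 30 min with 500 µM 4sU and after 60 min with 200 µM, total RNA of labelled cells at 30 min and 60 min, and unlabelled pre-existing RNA at 60 min. A second 60 min experiment, labelled 2F, held newly transcribed and total RNA. Neither 2F nor the word mock in some titles is explained in the labels. Each of the 11 groups had 3 arrays, except for 9 arrays each of newly transcribed and total RNA at 30 min. Nothing states that replicates came from separate cultures, so p-values measure the spread between these arrays, which may be technical.

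All 8 fibroblast markers on the arrays had a mean above 5 (10.14 to 14.17), while 0 of 3 epithelial, 0 of 2 endothelial and 0 of 1 muscle markers did, and 1 of 2 leukocyte markers reached 5.59. The number of arrays sets the precision, as an array has no read depth. The 9 arrays of total RNA at 30 min stood apart in 3 sets of 3 (replicates 1, 4 and 7, replicates 2, 5 and 8, and replicates 3, 6 and 9), with correlations across probe sets of 0.989 to 0.996 within a set and 0.926 to 0.971 between sets. In newly transcribed RNA the first set alone stood apart: its arrays correlated with those of the other sets at 0.942 at most, against 0.974 to 0.993 within sets, while the other sets reached 0.986 with each other. Each 30 min result was therefore also computed with every set averaged to 1 value. In the first 60 min experiment the arrays agreed less: the median correlation of an array with its group was 0.904 to 0.947 for total RNA and 0.861 to 0.922 for newly transcribed RNA, against 0.987 to 0.996 in the 2F experiment.

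The promoters of 5 members are shown because these genes mark the contrasts in turnover described below: Fbxo5, Fbxo30 and Usp36 were enriched in new RNA, and Ube2a and Ube2c were depleted from it. RefSeq windows on GRCm38.p6 matched 100 of the 129 members. Each run is the last 150 bases before the annotated start, read 5′ to 3′ on the gene's strand, and capitals mark matches on either strand to 1 of the 8 motifs searched: the TATA box (TATAAA), the CCAAT box (CCAAT), the GC box (GGGCGG), an ETS site (CCGGAAG), the cAMP response element (TGACGTCA), an AP-1 site (TGANTCA), the E-box (CACGTG) and an E2F site (TTTGGCGC). The runs lie at chr10:5805466-5805615 on the minus strand for Fbxo5, chr10:11281437-11281586 on the plus strand for Fbxo30, chr11:118290245-118290394 on the minus strand for Usp36, chrX:36874145-36874294 on the plus strand for Ube2a and chr2:164769779-164769928 on the plus strand for Ube2c.
Fbxo5: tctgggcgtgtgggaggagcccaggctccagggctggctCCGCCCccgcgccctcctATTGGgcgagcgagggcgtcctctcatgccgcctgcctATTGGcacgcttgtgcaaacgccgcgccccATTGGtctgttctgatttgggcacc
Fbxo30: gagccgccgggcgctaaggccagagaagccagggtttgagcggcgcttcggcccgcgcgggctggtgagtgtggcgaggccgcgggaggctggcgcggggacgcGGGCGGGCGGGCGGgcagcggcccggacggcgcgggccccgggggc
Usp36: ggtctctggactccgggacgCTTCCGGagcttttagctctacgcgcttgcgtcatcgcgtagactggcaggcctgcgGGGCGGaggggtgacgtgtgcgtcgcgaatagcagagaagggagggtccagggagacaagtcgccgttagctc
Ube2a: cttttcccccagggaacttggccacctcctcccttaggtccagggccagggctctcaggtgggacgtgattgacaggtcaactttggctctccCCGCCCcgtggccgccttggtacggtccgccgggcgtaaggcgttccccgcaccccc
Ube2c: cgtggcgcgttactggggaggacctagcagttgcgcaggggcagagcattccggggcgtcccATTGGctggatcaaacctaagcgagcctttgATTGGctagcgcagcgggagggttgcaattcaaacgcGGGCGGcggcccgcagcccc

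In these runs Fbxo5 held 3 CCAAT matches and Ube2c 2, the GGGCGG matches of Fbxo30 overlapped each other, and Usp36 held 1 CCGGAAG match. Over the 250 bases before the start, GGGCGG was found for 69.0% of the 100 members against 35.4% of 27025 genes in the table, and for 87.0% of 23 E2, 66.7% of 36 Usp and 61.0% of 41 F-box genes. CCGGAAG was found for 20.0% of members against 7.83% of genes, CCAAT for 25.0% against 37.5%, and TATAAA for 4.0% against 14.3%. Of the 12 members with a window that fell after 2 h of actinomycin D (below), 75.0% held GGGCGG and 33.3% CCAAT. Of the 11 with a window that were higher in new RNA at 30 min, 90.9% held GGGCGG and 27.3% CCAAT. Of the 19 with a window that were depleted from new RNA at 30 min, 68.4% and 31.6% did. The 27025 genes were all those with a window, whether or not on the arrays or expressed in these cells. Members and reference are therefore unlike sets. A match is a run of letters and not a shown binding site, and these shares carry no test.

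Actinomycin D for 2 h lowered a group of F-box and Usp transcripts, while no E2 gene passed the test without further scaling. A member was called where it changed at least 2-fold and limma gave a p below 0.05 after Benjamini-Hochberg adjustment across the whole table of probe sets. By that rule 17 of 105 members tested fell and 0 rose, while over all genes 10.9% fell and 0.294% rose. The fallers were 9 of 38 F-box genes, 7 of them among the 20 Fbxo genes, 8 of 39 Usp genes and 0 of 28 E2 genes. At an unadjusted limma p below 0.05, whatever the fold, 15 members were higher and 37 lower, among them 2 and 5 E2 genes. Median log2 changes were 0.09 for E2, -0.20 for Usp and -0.16 for F-box genes, and 0.06 over all genes. The sign of the Usp and F-box medians depended on the scaling, at -0.07 and 0.02 after quantile normalization and 0.13 and 0.18 after centring each array on its median, while the E2 median was 0.08 and 0.43. Genes are not replicates, so differences between classes are given without a test.

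Fbxo5, known as Emi1, an inhibitor of the anaphase-promoting complex, led the fall. Its log2 intensities were 9.91, 9.91 and 10.01 before the drug, 8.35, 8.49 and 8.17 after 1 h, and 6.28, 6.48 and 5.65 after 2 h. The 3 groups did not overlap, and the level was lower at each time. The log2 change was -3.81 ± 0.19 (SE, n = 3 per group, adjusted p = 5.4e-07), a 14.0-fold fall.

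Usp42, a deubiquitinase of the nucleus, read 8.00, 8.35 and 8.10 before, 6.80, 7.40 and 7.19 at 1 h, and 4.91, 5.56 and 5.30 at 2 h. Its change at 2 h was -2.89 ± 0.20 (adjusted p = 3.3e-06). Fbxo30 read 6.99, 7.61 and 7.40 before the drug, 6.99, 7.25 and 7.08 at 1 h and 4.83, 5.90 and 4.12 at 2 h. For Fbxo30 the first hour overlapped the untreated arrays, and the second hour lay below all of them (-2.38 ± 0.37). Fbxo28 behaved alike, at 7.12, 7.19 and 7.25 before, 7.18, 7.08 and 7.01 at 1 h and 4.54, 4.91 and 5.47 at 2 h (-2.21 ± 0.20).

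Fbxw7, the receptor that takes cyclin E, Myc and Notch to degradation, fell from 6.45, 6.54 and 6.47 to 5.65, 4.81 and 4.81 at 2 h (-1.40 ± 0.20, adjusted p = 5.8e-04). Fbxl5, the iron sensor that targets IRP2, fell from 7.87, 8.02 and 7.91 to 6.37, 6.72 and 6.77 (-1.32 ± 0.12, adjusted p = 2.8e-05). Neither gene's groups overlapped. Among the other fallers were Fbxo34 (-1.98), Usp53 (-1.65), Usp2 (-1.17), Usp10 (-1.16), a regulator of p53 and stress granules, and Usp32 (-1.11). Group means at 2 h were below the minimum of 5 for Fbxo28 (4.97), Fbxo30 (4.95), Fbxo34 (4.12), Usp38 (4.48) and Usp54 (4.50), so the size of their fall is less certain. These genes passed the minimum through their earlier groups, so no p is given for their fall. Fbxo28, Fbxo30, Fbxo34, Fbxw7, Usp2, Usp42 and Usp53 were singled out here after their values were seen.

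The E2 enzymes that serve the anaphase-promoting complex did not follow Fbxo5. Ube2c, which starts ubiquitin chains there, read 11.08, 11.02 and 11.07 before the drug and 11.15, 11.04 and 11.13 after 2 h (0.05, 95% interval -0.16 to 0.26). Ube2s, which extends them, changed by -0.24 (-0.53 to 0.05). The change of Ube2n, the E2 of lysine 63 chains, was 0.25 (-0.38 to 0.87), of Ube2d3, a broadly used E2, 0.09 (-0.15 to 0.32), and of Ube2b, a RAD6 enzyme, 0.17 (-0.05 to 0.38). For Ube2b the mean of its probe sets gave -1.02 instead (adjusted p = 2.6e-04), so its direction depended on the probe set. For the others a 2-fold change lay outside the interval. Among deubiquitinases, Usp7, which acts on Mdm2 and p53, changed by -0.26 (-0.51 to -0.01), Usp9x by 0.04 (-0.35 to 0.44) and Usp22, of the SAGA complex, by 0.25 (-0.06 to 0.55), and none of these passed.

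Under the 2 other scalings, 10 and 7 of the 17 members still fell. Fbxo5, Usp42, Fbxo30, Fbxo28, Fbxo34, Usp53 and Fbxw7 fell under both, by -3.54 and -3.47 for Fbxo5 after quantile normalization and median centring. With a minimum mean of 7, 68 members were tested and 4 fell. That mean takes in the drug arrays, so a member can drop out through its own fall. Usp42, for example, had a mean of 6.84 over these arrays and 8.15 in untreated cells. Some members were called higher under other scalings: Fbxo36 under both (1.05 after quantile normalization and 1.19 after median centring), and the E2 member Ube2d-ps (1.13) and Usp11 (1.03) after median centring. Over all probe sets, median centring moved the median change from 0.10 to 0.43 and the share of calls that were higher from 5.4% to 40.5%, and quantile normalization gave 18.0%.

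**Figure D1:**
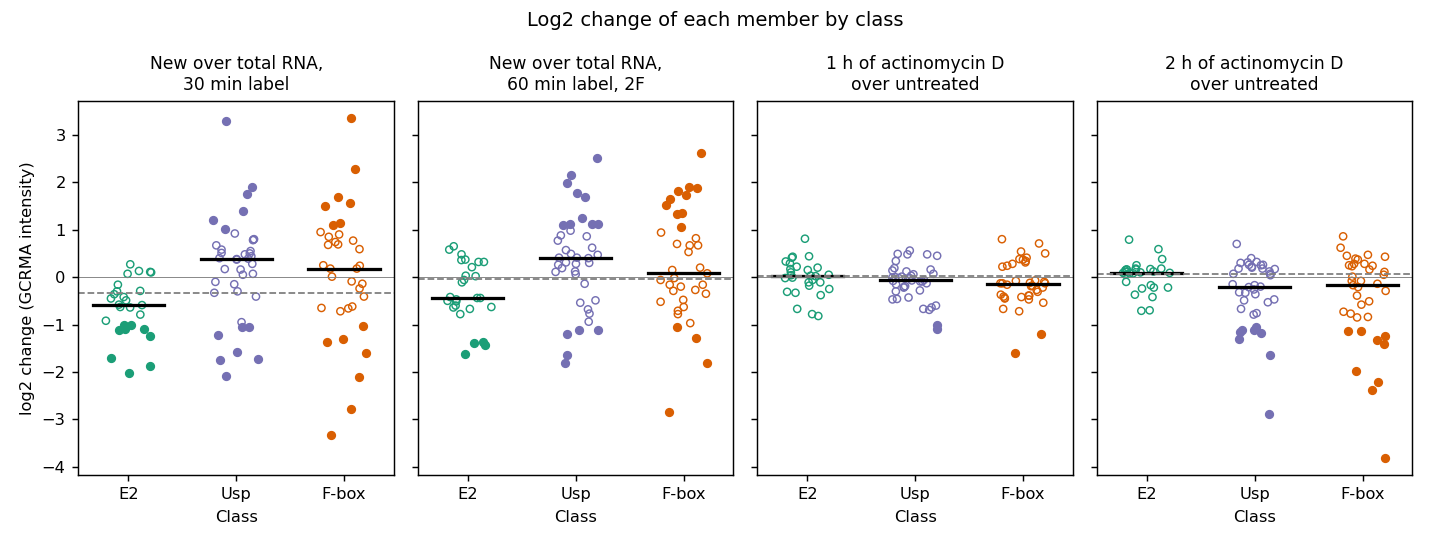
Log2 change of every tested member by class in 4 comparisons. Filled points passed the test, black bars are class medians and the dashed line is the median over all genes; E2 genes hold no filled point under actinomycin D, and their median lies below the all-gene line in both panels of new over total RNA.

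After 1 h of the drug, 4 of 105 members had fallen and 0 had risen, against 3.97% and 0.699% of genes. They were Fbxo5 (-1.61 ± 0.19, adjusted p = 5.9e-04), Fbxw8 (-1.21 ± 0.15, adjusted p = 7.0e-04), Usp2 (-1.09 ± 0.23, adjusted p = 0.0058) and Usp42 (-1.02 ± 0.20, adjusted p = 0.0044). At an unadjusted p below 0.05, 20 were higher and 24 lower. Without replicate 3 of each group, 2 members passed. The course of Fbxw8, a receptor that works with the cullin Cul7, was unlike that of the other 3. Its arrays read 8.63, 8.34 and 8.36 before, 7.34, 7.27 and 7.08 at 1 h, and 9.14, 8.68 and 8.68 at 2 h. The 1 h arrays lay below and the 2 h arrays above all untreated arrays, and the change at 2 h was 0.39 ± 0.15 (adjusted p = 0.069). Usp21 (-0.69 and 0.32), Ube2v1 (-0.78 and 0.10) and Ube2n (-0.67 and 0.25) had the same pair of signs, with changes under 2-fold at both times. These genes were picked after their values were seen, and the 2 h against the 1 h arrays were not tested.

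Newly transcribed over total RNA shows which transcripts are made fast relative to their amount. After 30 min of label, 13 of 101 members were higher in new RNA and 23 lower, against 14.4% and 29.1% of genes. Of 27 E2 genes, 0 were higher and 9 lower, and 22 had a change below 0. The lower share of E2 genes, 33.3%, was close to the 29.1% of all genes. At an unadjusted limma p below 0.05, 0 E2 genes were higher and 19 lower, or 14 lower with each set of arrays averaged. Of 39 Usp genes, 6 were higher and 7 lower (15.4% and 17.9%), and of 35 F-box genes 7 were higher and 7 lower (20.0% each). Median log2 changes were -0.59 for E2, 0.38 for Usp and 0.18 for F-box genes against -0.33 over all genes. Median centring, which moved the median of all probe sets from -0.14 to -0.44, gave -0.89, 0.08 and -0.11, so the F-box median changed sign. With each set of arrays averaged, 13 members were higher and 21 lower. The balance depended on the choice of probe set: the mean of a gene's probe sets gave 22 higher and 14 lower of 92 members, with 25 of the 36 calls shared and 2 opposite. That choice gave 2 higher and 6 lower of 26 E2 genes and an E2 median of -0.22, 12 and 3 of 33 Usp genes, and 8 and 5 of 33 F-box genes. Within the F-box genes, the 7 Fbxw genes had 3 higher and 2 lower, the 19 Fbxo genes 4 and 1, and the 9 Fbxl genes 0 and 4.

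Usp36, a nucleolar deubiquitinase, gave a large enrichment. Newly transcribed RNA ranged from 8.99 to 10.07 (median 9.39) and total RNA from 5.90 to 6.51 (median 6.13), without overlap. The change was 3.30 ± 0.14 (SE, 9 arrays per group, adjusted p = 1.1e-13), a 9.88-fold enrichment. Its other probe sets also passed, at 1.66 and 1.69. Under 2 h of the drug the probe set used changed by -0.33 ± 0.13 (adjusted p = 0.08), while another gave -1.28 ± 0.27 (adjusted p = 0.0054), so the response of Usp36 to the drug differed between its probe sets.

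Fbxo30 in new RNA ranged from 8.17 to 10.10 (median 9.28) and in total RNA from 6.29 to 7.41 (median 7.00), a change of 2.29 ± 0.25 (adjusted p = 5.6e-08). Usp42 ranged from 9.51 to 9.98 (median 9.81) against 7.73 to 8.47 (median 7.91), a change of 1.75 ± 0.12 (adjusted p = 5.1e-11). Both genes lay higher in new RNA on every array. Fbxw7 (1.69 ± 0.14), Fbxo5 (1.56 ± 0.23), Usp53 (1.90 ± 0.21) and Usp2 (1.20 ± 0.17) also passed without overlap. Usp2, a deubiquitinase with strong daily rhythms in many tissues, was read from 8.05 to 9.04 in new RNA and from 6.99 to 7.84 in total RNA.

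Fbxw2 had the largest value, 3.36 ± 0.17, but its 6 probe sets ranged from -1.02 to 3.75, with 2 called higher and 1 lower. The probe set with the highest mean in untreated cells gave -1.02 ± 0.07 (adjusted p = 1.2e-10). Across the members, 8 of 49 genes with several tested probe sets had some called higher and others lower at 30 min: Fbxw2, Ube2b, Ube2d2a, Ube2d3, Ube2e1, Ube2f, Usp14 and Usp8. After 2 h of actinomycin D this held for 0 of 45 genes. Only 4 of the 129 members would have had another probe set under the untreated mean, Fbxo3, Fbxw2, Ube2j1 and Usp47, and Fbxw2 was the only named gene that changed sign.

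The depleted members included E2 enzymes of several roles. Ube2a, a RAD6 enzyme that acts on PCNA and histone H2B, ranged from 7.80 to 8.60 in new RNA (median 8.21) and from 9.96 to 10.51 in total RNA (median 10.24). The groups did not overlap, and the change was -2.03 ± 0.10 (adjusted p = 1.0e-12), a 4.07-fold depletion. The other probe set of Ube2a gave -0.93, under the fold threshold. Ube2d1, of the same broad-acting subfamily as Ube2d3, ranged from 5.51 to 7.07 against 7.73 to 8.29 (-1.70 ± 0.16, adjusted p = 5.9e-09). Ube2c ranged from 8.83 to 9.94 against 10.03 to 11.10 (-1.24 ± 0.20, adjusted p = 9.2e-06). Ube2s (-1.09, adjusted p = 0.0015) and Ube2v1 (-1.01, adjusted p = 3.7e-04) passed with 9 arrays per group and not with the sets averaged, at adjusted p = 0.078 and 0.051.

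Usp11, a deubiquitinase linked to DNA repair, ranged from 4.88 to 6.15 in new RNA against 7.36 to 7.88 in total RNA (-2.09 ± 0.15, adjusted p = 1.1e-10). Usp5, which takes apart free ubiquitin chains, ranged from 6.58 to 7.26 against 7.50 to 8.88 (-1.58 ± 0.18, adjusted p = 7.3e-08). Fbxo6, a receptor of glycoproteins, ranged from 3.21 to 4.71 against 6.46 to 7.28. Its new RNA lay below the intensity minimum on all 9 arrays, and it was tested only because its total RNA was high, so neither its rank nor its p is given. The same holds for Fbxl6, with group means of 4.28 and 7.08. Usp11 and Fbxo6 were singled out after their values were seen. Fbxw8 was depleted by -2.10 ± 0.32 (adjusted p = 6.0e-06), but its new RNA followed the sets: the set means were 7.74, 5.95 and 5.97 in new RNA and 9.12, 7.96 and 8.89 in total RNA. Usp8 and Usp14 were called lower at -1.05 and -1.06, but the mean of their probe sets gave 1.25 and 0.20.

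**Figure D2:**
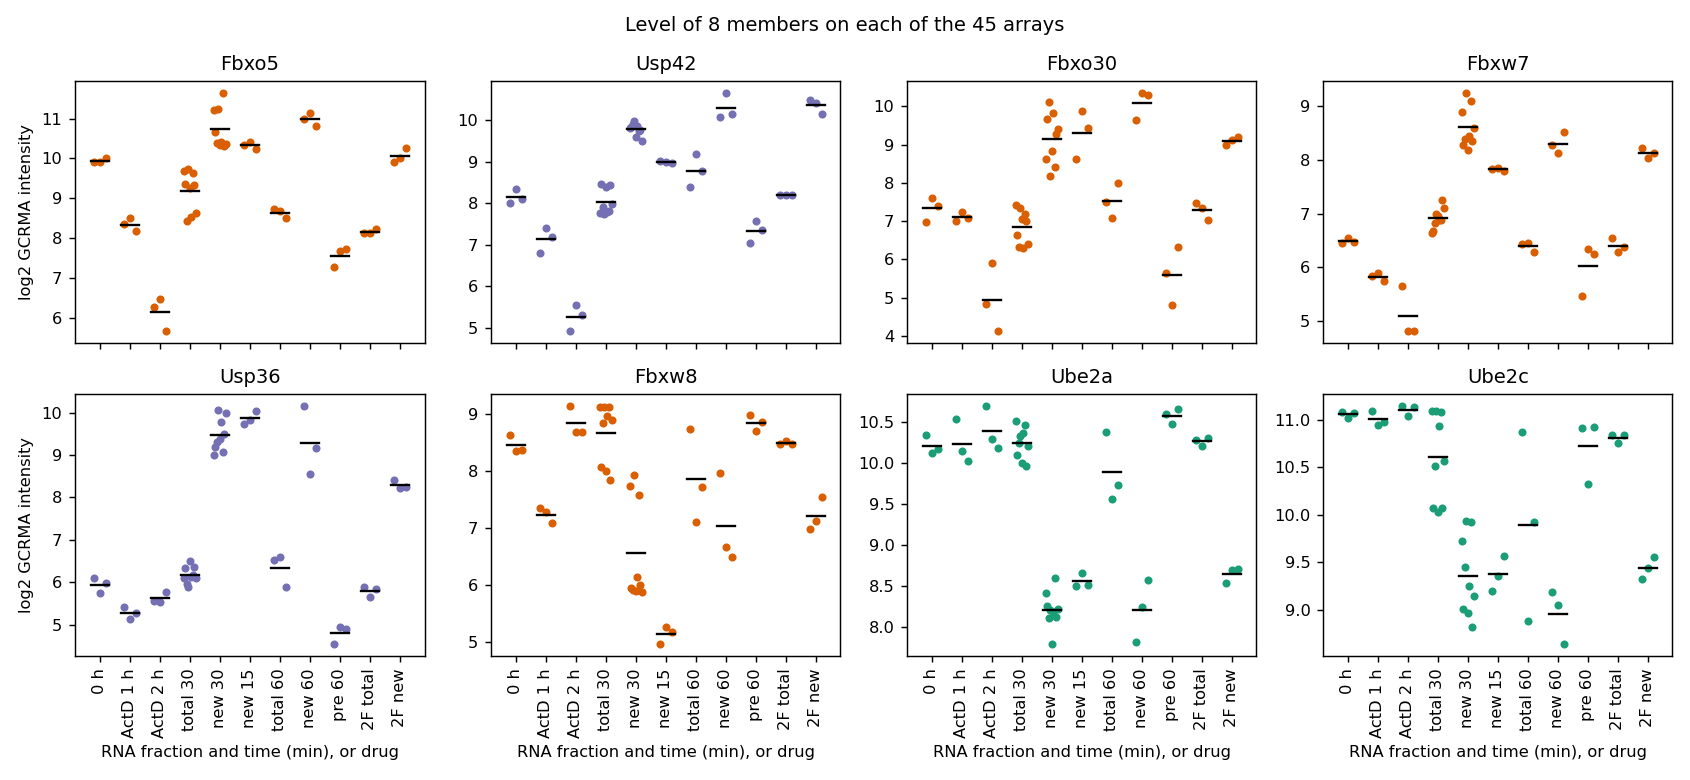
Log2 GCRMA intensity of 8 members on each of the 45 arrays, by RNA fraction, label time in minutes or drug; bars are group means and each panel has its own axis. Fbxo5 and Usp42 fall step by step under actinomycin D and are high in new RNA, whereas the 2 h arrays of Ube2a and Ube2c overlap the untreated ones and both genes are low in new RNA.

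Enrichment in new RNA and loss under the drug share no arrays, and 101 members were tested in both. Of the 13 members higher in new RNA, 8 also fell after 2 h of actinomycin D (61.5% of the first list and 47.1% of the 17 in the second): Fbxo5, Fbxo28, Fbxo30, Fbxw7, Usp2, Usp42, Usp53 and Usp6nl. Over 7791 genes tested in both, 481 were in both lists, 51.6% of the 933 higher in new RNA and 54.4% of the 885 that fell, so the members' shares were close to those of all genes. No member was called lower in both, and 13 of the 7791 genes were. Across members, the Spearman correlation of the 2 log2 changes was -0.70 (n = 101), against -0.67 across 7791 genes, and it was -0.57 for 27 E2, -0.79 for 39 Usp and -0.60 for 35 F-box genes. These are descriptions across genes, which are not independent. The 5 members higher in new RNA that were not called under the drug were Fbxo33, Fbxw17, Fbxw2, Usp36 and Usp37. Fbxo33 (-0.73 ± 0.11, adjusted p = 8.9e-04) and Usp37 (-0.67 ± 0.23, adjusted p = 0.048) were lower by less than 2-fold.

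**Figure D3:**
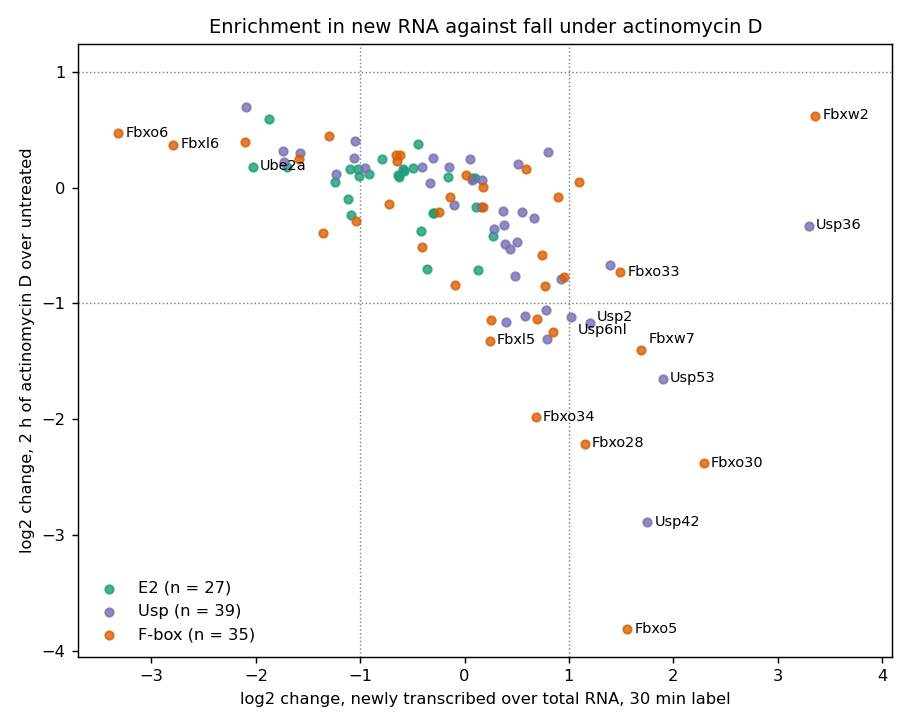
Log2 change of new over total RNA at 30 min (horizontal) against the change after 2 h of actinomycin D (vertical) for 101 members, coloured by class; dotted lines mark a 2-fold change. Fbxo5, Usp42 and Fbxo30 lie at the lower right, and Fbxw2 and Usp36 lie at the far right with little or no fall.

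The 60 min experiments measured the same contrast again. In the 2F experiment, 20 of 104 members were higher and 13 lower in new RNA, against 18.8% and 22.5% of genes. The split was 0 higher and 4 lower of 27 E2 genes, 10 and 5 of 40 Usp genes, and 10 and 4 of 37 F-box genes. The lower share of E2 genes was 14.8%, below the 22.5% of all genes. In the first 60 min experiment, 20 of 103 were higher and 16 lower, against 15.6% and 24.6% of genes. Of 28 E2 genes there, 1 was higher and 7 were lower (3.57% and 25.0%). Without replicate 2 of each group 13 members were higher there, and without replicate 3, 7 were higher and 5 lower. The E2 gene called higher, Ube2o, had overlapping groups and a mean of 5.85. The Spearman correlation of the 30 min and 2F changes across members was 0.92 (n = 101), against 0.93 across 8135 genes.

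Of 101 members tested in all 3 experiments, 9 were higher in each, Fbxo5, Fbxo30, Fbxo33, Fbxw2, Fbxw7, Usp2, Usp36, Usp37 and Usp42, and 7 lower in each, Fbxo6 (tested only through its total RNA), Ube2a, Ube2d1, Ube2e2, Usp8, Usp11 and Usp15. Opposite calls occurred for 0 members. New RNA of Usp11 averaged 4.50 in the first 60 min experiment, below the intensity minimum. For Usp8 the mean of its probe sets gave 1.25 at 30 min, 0.44 in the first 60 min experiment and 0.84 in 2F. Its direction therefore depended on the probe set, as did that of Fbxw2 at 30 min. The shares of members were 8.91% and 6.93%, against 8.84% and 15.5% of 8024 genes, of which 1 had opposite calls. Fbxo5 in the 2F experiment read 9.92, 10.02 and 10.25 in new RNA and 8.12, 8.12 and 8.23 in total RNA (1.91 ± 0.11, adjusted p = 3.8e-07). Usp42 there read 10.50, 10.42 and 10.15 against 8.20, 8.19 and 8.21 (2.16 ± 0.11, adjusted p = 2.2e-07). Ube2a read 8.54, 8.69 and 8.71 against 10.28, 10.21 and 10.31 (-1.62 ± 0.09, adjusted p = 3.6e-07). In these 3 genes the 2 fractions stood well apart. Fbxw11, the beta-TrCP homologue that targets beta-catenin and I-kappa-B, was 0.95 at 30 min, under the fold threshold, and 1.06 ± 0.08 in the 2F experiment.

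**Figure D4:**
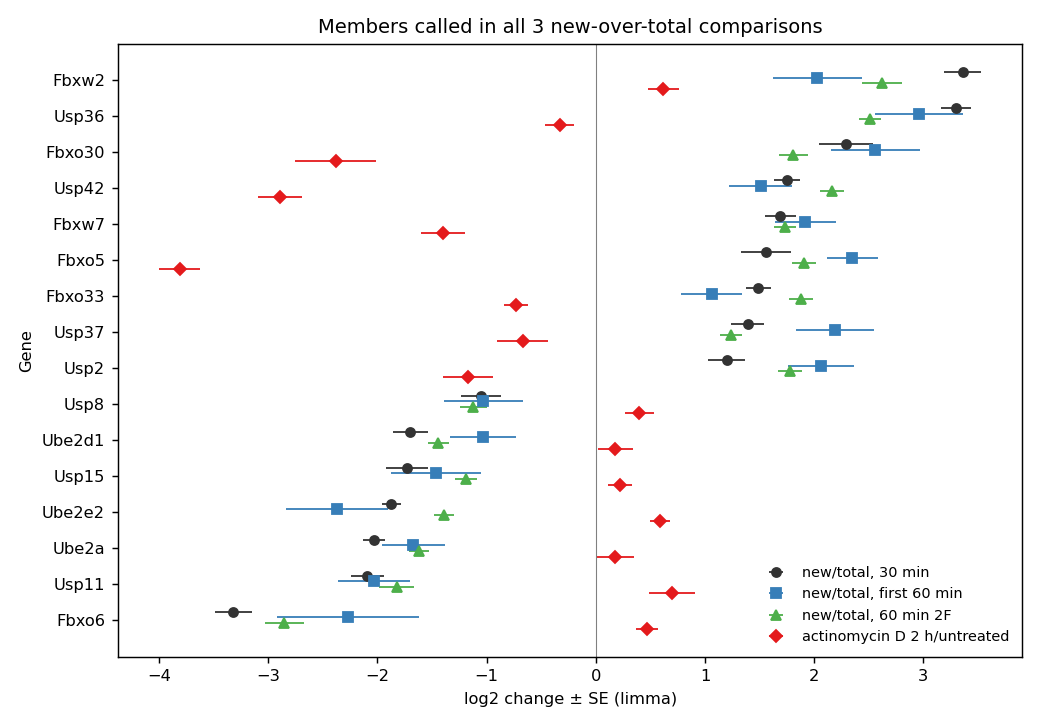
Log2 change with its standard error for the 16 members called in all 3 comparisons of new over total RNA (30 min, first 60 min and 2F), with the change after 2 h of actinomycin D in red. Each gene is read from 1 probe set, and the direction of Fbxw2 and Usp8 at 30 min depended on that choice. Of the 9 enriched genes, Fbxw2 alone lies above 0 under the drug; the 7 depleted genes lie above 0, from 0.18 for Ube2a and Ube2d1 to 0.59 for Ube2e2 and 0.70 for Usp11.

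The enrichment in the first 60 min experiment was compared with that at 30 min. The arrays differed in label time, in 4sU concentration and in experiment. The interaction therefore cannot tell an effect of label time from the other differences. The interaction was called higher for 7 and lower for 5 of 101 members, against 10.0% and 5.30% of genes. With the 30 min sets averaged, 0 and 0 members passed in limma (7 higher and 2 lower at an unadjusted p below 0.05), so these calls rest on counting the 9 arrays separately. Without replicate 2 of each group 4 were higher, without replicate 1, 3 were lower, and without the first newly transcribed array of 60 min, 0 were lower. Without the second total RNA array of 60 min, 4 were higher and 2 lower. Members with a mean of 7 or more and the largest changes were Ube2q1 (1.32), Ube2f (1.25), Fbxo22 (-1.40), Fbxw2 (-1.33), Usp25 (-1.28) and Usp45 (-2.08).

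After 15 min instead of 30 min of label, 6 of 99 members were lower in new RNA and 0 higher, against 8.93% and 1.83% of genes (47 and 4 members at an unadjusted limma p below 0.05). Usp12 (-1.14 ± 0.14, adjusted p = 1.1e-04) read 7.13, 7.22 and 6.61 at 15 min and from 7.97 to 8.40 at 30 min. Fbxl14, which targets Snail family factors, read 7.29, 7.66 and 7.16 against 8.15 to 9.06 (-1.04 ± 0.19, adjusted p = 0.001). Usp6nl was lower by a similar size (-1.03 ± 0.16). None of these 3 genes overlapped. Fbxl17 (-1.28), Fbxw8 (-1.42) and Usp20 (-1.05) made up the 6. Fbxl17 averaged 5.99 at 15 min against 30 min set means of 8.02, 6.86 and 6.92. Fbxw8 averaged 5.13 against 7.74, 5.95 and 5.97, so both gaps were largest against the first set. Usp20 averaged 4.62 at 15 min, below the intensity minimum. With each 30 min set averaged, 5 of the 6 passed, and at an unadjusted limma p below 0.05, 38 members were lower and 2 higher. Without replicate 3 of each group, 2 members passed.

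Pre-existing RNA at 60 min was lower than total RNA for 4 of 103 members and higher for 2, against 2.81% and 1.87% of genes. The 4 were Fbxo30 (-1.94 ± 0.41, adjusted p = 0.015), Usp36 (-1.54 ± 0.40), Usp42 (-1.47 ± 0.29, adjusted p = 0.01) and Fbxo5 (-1.09 ± 0.23, adjusted p = 0.016). New over total RNA of the same experiment, which shares the total RNA arrays, gave 2.56, 2.96, 1.51 and 2.35 for these genes. Pre-existing Usp36 read 4.54 to 4.95, below the intensity minimum on all its arrays. Usp36 was tested only because its total and new RNA were higher, so its p is not given. The mean of its probe sets gave 0.00. Pre-existing Fbxo5 read 7.27, 7.67 and 7.72 against 8.72, 8.68 and 8.51 in total RNA. Usp11 (1.47) and Usp21 (1.69) were higher. With the replicate number as a block, 5 were higher and 5 lower. These counts depend on single arrays: without replicate 1 of each group, 13 were higher and 8 lower, without replicate 2 or replicate 3 there were 0 of either, and without the second total RNA array alone, 0 were higher.

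Half-lives were estimated from the 2F ratios, assuming that total RNA stays constant. The scale was set by the line of pre-existing over 2F total RNA on new over total RNA across 9530 probe sets (r = -0.63), which mixes both 60 min experiments; the labels do not tie these samples to each other. The line within the first 60 min experiment had r = -0.09 and was not used, a choice made after seeing the data. On this scale the median half-life was 7.17 h over 24 E2 genes, 3.82 h over 27 Usp genes and 2.82 h over 18 F-box genes, against 5.09 h over 5699 genes. Estimates under 3 h were held by 0 E2, 9 Usp and 9 F-box genes (0%, 33.3% and 50.0%), against 27.2% of all genes. The limit was 3 h here and 120 min on the scale that was not used. The shortest E2 estimate, 3.17 h, lay just above 3 h, so the E2 count of 0 depends on the limit.

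Usp42 had an estimate of 0.849 h (95% interval 0.640 to 1.09, from the new over total ratio alone), and its fall over 2 h of actinomycin D corresponded to 41.5 min. For Fbxo5 the values were 1.09 h (0.855 to 1.37) and 31.5 min. Its total RNA was not the same throughout, at 9.91 to 10.01 in untreated cells, 8.51 to 8.72 in the first 60 min experiment and 8.12 to 8.23 in 2F, so the assumption of constant total RNA is in doubt for this gene. For Usp42 and Fbxo5 the 2 estimates restate the ratio and the fall already given, so they add no separate support. The 95% intervals of Fbxo5 did not overlap, at 51.3 to 82.4 min from the ratio and 28.3 to 35.5 min from the drug. Usp36 had the shortest estimate, 0.554 h (0.382 to 0.739), but 369 min from the drug with the same probe set. The shortest E2 estimate was 3.17 h, for Ube2h, and Ube2a reached 16.7 h.

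**Figure D5:**
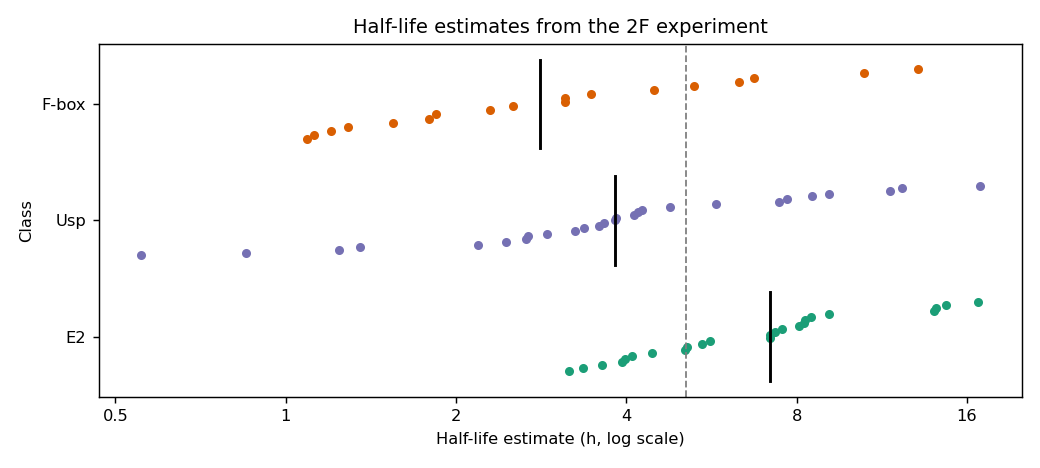
Half-life estimates of the members with a mean log2 of 7 or more in the 2F experiment, in hours on a log axis, by class. Points are genes and black bars are class medians (7.17 h, 3.82 h and 2.82 h). The dashed line is the median over all genes (5.09 h), and the lowest E2 point lies at 3.17 h.

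Total RNA of labelled cells was compared with untreated cells to see whether members moved after the label was added. At 30 min 0 of 103 were higher and 0 lower in limma, against 0.371% and 0.0719% of genes, and at an unadjusted p below 0.05 the counts were 5 and 7. At 60 min 1 was higher and 2 lower, against 2.29% and 3.09% of genes: Usp39 (1.16 ± 0.34, adjusted p = 0.04, groups overlapping), Usp21 (-1.44 ± 0.32, adjusted p = 0.012) and Fbxo5 (-1.31 ± 0.32, adjusted p = 0.02). Fbxo5 in total RNA read 8.72, 8.68 and 8.51 at 60 min and 8.43 to 9.72 at 30 min, below the untreated 9.91 to 10.01 throughout. The label came with fresh medium, and the untreated and labelled cells belong to different experiments. Label, fresh medium and experiment therefore cannot be told apart. Without replicate 1 of each group, 2 were higher and 9 lower at 60 min, and without replicate 2, replicate 3 or the second total RNA array, 0 of either.

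The rest of the ubiquitin pathway was read from 6 lists written from general knowledge. Under 2 h of actinomycin D, 0 of 21 cullin-RING scaffold genes, 0 of 14 genes of the anaphase-promoting complex and 0 of 6 ubiquitin-like and activating enzyme genes fell, and none rose. The count of fallers was 10 of 55 HECT and RING ligases, 4 of 21 other deubiquitinases and 1 of 7 F-box proteins of other names, where 10.9% of all genes fell. Lists this short were not compared with each other or with that share. Examples were the ligases Siah2 (-2.96) and Mdm2 (-1.41), which targets p53, the deubiquitinase Vcpip1 (-3.97), and Ccnf, cyclin F (-4.44 ± 0.17, adjusted p = 1.6e-07), for which the F-box is named. In new RNA at 30 min the counts, higher and lower, were 1 and 8 of 22 scaffold genes, 0 and 5 of 14 anaphase-promoting complex genes, 0 and 3 of 6 ubiquitin-like and activating enzyme genes, 11 and 3 of 56 ligases, 8 and 5 of 23 other deubiquitinases, and 2 and 1 of 7 other F-box proteins, beside 14.4% higher and 29.1% lower over all genes. The lower genes included the SCF adaptor Skp1 (-1.80) and Cops5 (-1.69), the catalytic subunit of the COP9 signalosome, which removes Nedd8 from cullins. The higher genes included Tnfaip3 (3.61), known as A20, a brake on NF-kappa-B. The scaffold gene called higher was Rbx1, the RING subunit (4.39), read from 1 probe set per gene like the rest.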

How the data were processed

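RNA of NIH-3T3 cells was measured on 45 Affymetrix arrays after Trizol extraction and one-cycle labelling, per the labels' protocols. The deposited values are intensities on a linear scale; the submitters' processing notes name GCRMA, by which the authors made them, and no version of it is given in the sources used here. Values were taken to log2. Of 31451 probe sets, 61 were controls and were kept out, and 25031 had exactly 1 symbol. All 129 members matched the RefSeq gene table, 1 of them (Ube2d-ps) as a non-coding RNA.

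Comparisons used limma 3.58.1 (lmFit, eBayes) in R 4.3.3 with group as the only factor, on the arrays of the experiment. A probe set entered when its log2 values averaged at least 5 on those arrays. Calls needed a change of at least 2-fold and p below 0.05 after Benjamini-Hochberg adjustment across every probe set in the fit. Percentages of genes use 1 probe set per gene. A mean over arrays can pass while 1 group lies below the minimum, and members counted as tested are not all members. Half-lives used linear group means with a mean log2 of 7 or more. Fits were tested on simulated data. Tables and figures were made with Python 3.11.15, pandas 2.3.3 and matplotlib 3.10.9.

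Named genes were, per class and direction, up to 4 called members (2 in the secondary comparisons) with the largest change and a mean log2 of 7 or more, all called members where 5 or fewer passed, and 26 listed genes, 22 of which are members. Members named beyond this, lists and members themselves were chosen with results of these data known. Alternatives were no filter or a minimum of 7, quantile normalization, median centring, the mean of a gene's probe sets, 1 fit over 45 arrays, a replicate block and leaving out replicates. Added after seeing the data were averaged 30 min sets, single arrays left out, 2F total RNA and the probe set by untreated mean. No label says that replicate numbers pair arrays. Every pair of same-numbered arrays had deviations correlated above 0.1 in both drug comparisons (1 h, 0.124 to 0.169, and 2 h, 0.209 to 0.527). The same held in the first 60 min experiment for new over total (0.142 to 0.293) and pre-existing over total RNA (0.206 to 0.382). It also held for total RNA at 60 min against untreated cells (0.127 to 0.314). The main fits and their p-values did not use these pairs, which entered only as the replicate block among the alternatives.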

Additional observations from a re-analysis of the deposited data

Results flagged for a closer look

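Among members whose 9 arrays of newly transcribed RNA at 30 min were read, 3 had 1 array far from the rest. Chance alone gives such a gap in about 1 in 20 groups of alike arrays. That rate does not apply as it stands here, because the first set of these arrays stood apart. Usp48 had a lowest array at 4.52, with the next at 5.43. Usp53 had a lowest array at 7.16, with the next at 7.81. Usp6nl had a highest array at 8.25, with the next at 7.84. Set means in new RNA were 5.14, 6.21 and 6.08 for Usp48, 7.68, 8.17 and 8.11 for Usp53, and 7.94, 7.62 and 7.66 for Usp6nl.

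For 6 members the enrichment in new over total RNA differed between the first 60 min experiment and 30 min by limma's interaction term: Ube2q1 by 1.32, Ube2f by 1.25, Usp45 by -2.08, Usp25 by -1.28, Fbxo22 by -1.40 and Fbxw2 by -1.33 on the log2 scale. With the 30 min sets averaged, the adjusted p of these 6 was 0.16 to 0.30. Fbxw2 gave 1.16 with the probe set of the highest untreated mean.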

How the results depend on the processing

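Of 2064 recomputed values, 1857 kept their direction and side of the threshold or stayed within their spread, 117 lost and 15 gained a call, 67 moved and 8 reversed. A minimum mean of 7 left 2 members lower at 1 h and 4 at 2 h of actinomycin D. In new RNA it left 9 higher in the first 60 min experiment, and 13 higher and 8 lower in the 2F experiment. It left 0 higher in pre-existing RNA, 3 lower at 15 min and 3 higher in the interaction. Fewer members were tested, and a member low in 1 group could drop out through that group. Without a filter, 0 were higher in total RNA at 60 min, and the F-box median in new RNA at 30 min was -0.05. For the 2 h drug comparison, quantile normalization gave 1 higher and 10 lower, and median centring 3 higher and 7 lower. Median centring gave 4 higher in pre-existing RNA and 14 higher in the interaction. It moved the E2, Usp and F-box medians to 0.43, 0.13 and 0.18 under the drug and to -0.89, 0.08 and -0.11 in new RNA at 30 min, and quantile normalization the Usp and F-box medians under the drug to -0.07 and 0.02. The share of calls that were higher over all probe sets changed under median centring from 48.1% to 36.6% in new RNA at 30 min, from 21.2% to 34.4% in pre-existing RNA, from 44.3% to 57.1% in total RNA at 60 min and from 44.1% to 64.3% in the interaction. The mean of a gene's probe sets gave 2 lower at 1 h of the drug, 22 higher and 14 lower in new RNA at 30 min, 9 lower in the first 60 min experiment, 1 higher and 3 lower at 15 min, an E2 median of -0.22 and a Usp median of 0.59 in new RNA at 30 min, and a Usp median of -0.34 under the drug; at a minimum of 7 the Usp median under the drug was 0.12 and the F-box median in new RNA 0.69. That mean reversed Usp8 (1.25 at 30 min, 0.44 and 0.84 in the first and the 2F 60 min experiments), Usp14 (0.20 at 30 min), Ube2b (-1.02 under the drug) and Usp36 in pre-existing RNA (0.00). The probe set of the highest untreated mean reversed Fbxw2 at 30 min (-1.02) and in the interaction (1.16). The cause of these changes was not tested. 1 fit over 45 arrays gave 12 higher and 7 lower in pre-existing RNA and 6 lower in total RNA at 60 min. 2F total RNA in place of the first left 0 higher and 2 lower in pre-existing RNA. With averaged 30 min sets the interaction had 0 and 0.

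The replicate block gave 5 higher and 5 lower in pre-existing RNA and changed no other count of members by over 1.5 times, with 17 lower at 2 h of the drug as without it. Where numbers did not pair in every case, correlations were -0.138 to 0.454 for the 30 min arrays, 0.032 to 0.142 for 2F, -0.008 to 0.167 for 15 min and -0.082 to 0.374 for total RNA at 30 min, and the block gave 13 higher and 23 lower in new RNA at 30 min. Leaving out replicates gave 2 to 5 members lower at 1 h of the drug, 7 to 20 higher and 5 to 17 lower in the first 60 min experiment, 0 to 13 higher and 0 to 8 lower in pre-existing RNA, 2 to 9 lower at 15 min, 0 to 2 higher and 0 to 9 lower in total RNA at 60 min, and 4 to 8 higher and 0 to 7 lower in the interaction.

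Half-lives on the scale of the first 60 min experiment had class medians of 2170, 1620 and 1320 min for E2, Usp and F-box genes. They were 1120, 835 and 681 min with the scale from a mean of 5 or more, 1700 min for E2 and 1010 min for F-box genes after quantile normalization, 1010 min for F-box genes with 2F ratios, and 430, 230 and 208 min over the same genes with the scale used in the text. Leaving out a replicate gave 909 to 16100, 626 to 13000 and 530 to 10100 min, and no value without replicate 1, where the scale was negative. These arrays have no detection calls used here, so low members, among them 17 F-box genes, set the limit of what could be compared.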
